A study of Canis lupus familiaris with 27 samples.

Results

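The carcinomas described here are the 18 of 27 canine mammary carcinomas that measured between 2 and 5 cm by the sample labels, 9 from dogs with an affected inguinal lymph node (metastatic carcinomas) and 9 from dogs without lymph node metastasis (non-metastatic carcinomas). Mean size was 3.11 ± 0.93 cm (SD, n = 9) in the metastatic and 3.11 ± 0.60 cm (SD, n = 9) in the non-metastatic carcinomas, with ranges of 2 to 5 cm and 2 to 4 cm. Each group held 4 carcinomas of histologic grade II and 5 of grade III. The dogs were 9 to 16 years old in the metastatic group (11.9 ± 2.76 years) and 9 to 13 years old in the non-metastatic group (10.9 ± 1.36 years). All 18 carcinomas were labelled negative for the estrogen receptor, and 17 were labelled positive for HER-2, the exception being metastatic tumor 1. The study's own listing differs from the labels in the HER-2 status of 1 non-metastatic tumor, and the labels were used. The labels gave 1 to 9 months of survival after surgery for 8 dogs with metastases and more than 24 months for all 9 dogs without. Tumors were simple carcinomas of client-owned dogs of several breeds, macrodissected for carcinoma tissue, and 1 array was hybridized per tumor. Tumors are numbered 1 to 9 within each group. The remaining 9 carcinomas of the series, 4 metastatic of 0.5 to 1 cm and 5 non-metastatic of 7 to 15 cm, had no counterpart of equal size and were used only for comparison.

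Mammary carcinomas of the dog spread first to the regional lymph nodes, and tumor size and histologic grade are both established predictors of that spread. In the whole series small metastatic tumors stand against large non-metastatic ones, so that the size-matched tumors address whether expression differs with lymph node status where size and grade are balanced. Bulk tumor RNA comes from carcinoma cells together with the basal and myoepithelial layer, fibroblasts and their collagen matrix, vessels and immune cells. Fewer cells of a type and less RNA per cell cannot be told apart in such RNA.

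The deposited values are log2 signals, and a log2 difference is the mean of the metastatic minus the mean of the non-metastatic carcinomas. Over the 18 arrays the median probe set stood at 3.64, so that values of about 2 to 3 lie at the lower end of the scale. Of the 5 epithelial markers checked, 4 were represented and similar in both groups. EPCAM was at 13.80 ± 0.72 in metastatic and 13.70 ± 0.40 in non-metastatic carcinomas (SD, n = 9 each), and the log2 differences of KRT8, KRT18, EPCAM and CDH1 lay between -0.08 and 0.18. The arrays differed in 1 technical measure. The upper quartile of all probe sets was 7.93 ± 0.04 (range 7.88 to 8.00) on the metastatic and 7.79 ± 0.15 (range 7.54 to 7.92) on the non-metastatic arrays (two-sided exact permutation test of 48620 splits, p = 0.00629, adjusted p = 0.0315 over 5 measures). The difference between 3' and 5' control probe sets, a measure of RNA integrity, was 0.11 ± 0.13 against 0.05 ± 0.17 for GAPDH (exact permutation p = 0.413) and -0.50 ± 0.44 against -0.49 ± 0.29 for actin (exact permutation p = 0.916). The names of 7 of the 9 metastatic samples end in the letter T and those of 0 of the 9 non-metastatic samples do. What the letter stands for is not given in the sources used here, and how far it or the upper quartile contributes to the results was not tested beyond the fits with each as a term that are given with the counts.

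A total of 505 of 15115 genes passed an adjusted p of 0.05 in limma, which is 3.34% of the genes tested. Signals were higher in metastatic carcinomas for 355 genes (2.35%) and lower for 150 genes (0.992%). The genes with the largest increase encoded a lactate transporter (SLC16A3), a retinol carrier (RBP4), matrix proteins (ASPN, THBS2, COCH) and factors of chromosome segregation and replication (PRC1, TTK, ORC6, GINS4). The genes with the largest decrease included a secretoglobin of secretory epithelia (SCGB1A1), an adhesion molecule (HEPACAM2), contractile proteins (MYH11, CNN1), a basal keratin (KRT17), growth factor receptors (NTRK2, FGFR1) and the activin antagonist FST. Among 42860 probe sets, 901 were higher and 594 lower at the same threshold. Only 1 probe set (0.00233%) passed an adjusted p of 0.001 together with a fold change of 1.7, the limits used for the whole series. This probe set has no gene symbol in the platform annotation, was chosen after its values were seen, and stood at a mean of 4.88 in metastatic against 6.82 in non-metastatic carcinomas (log2 difference -1.94 ± 0.20 SE, adjusted p = 0.000798).

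**Figure D1:**
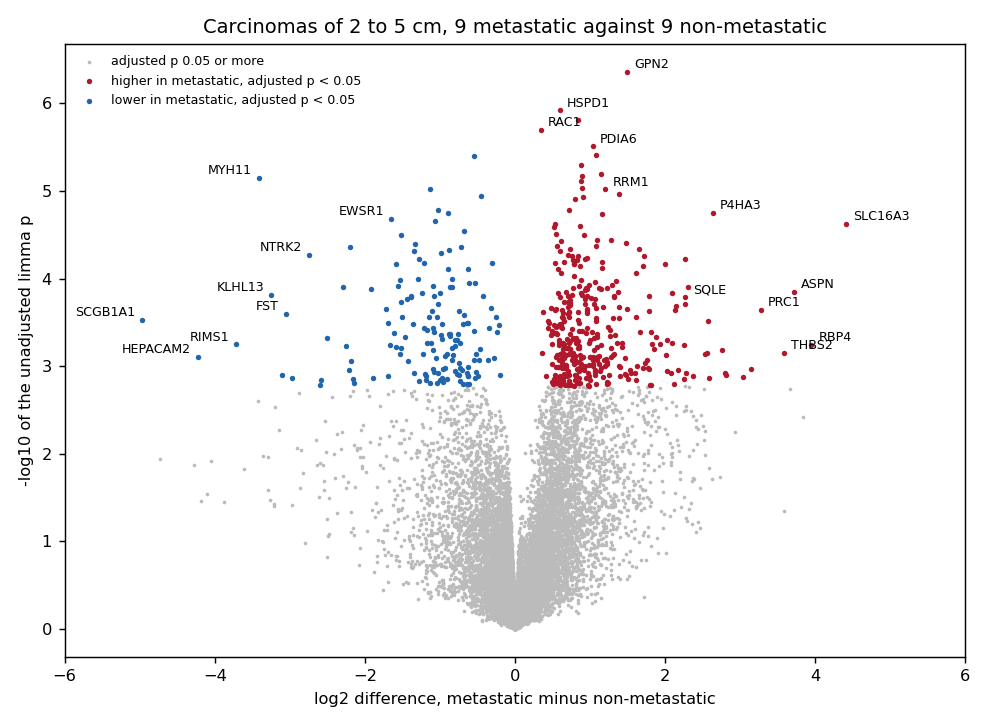
Log2 difference between 9 metastatic and 9 non-metastatic carcinomas of 2 to 5 cm (x axis) against the negative log10 of the unadjusted limma p (y axis) for 15115 genes. Red points are the 355 genes higher and blue points the 150 genes lower in metastatic carcinomas at an adjusted p under 0.05, and the named genes reach from -4.97 (SCGB1A1) to 4.41 (SLC16A3).

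The number of genes depended on the scaling of the arrays and on single tumors. After a second quantile normalization of the arrays, 134 genes were higher and 183 lower, so that the share of higher genes went from 70.3% to 42.3%. After centring each array on its median, 445 were higher and 127 lower. With the upper quartile as a covariate 11 genes were called, all of them among the 505, and all 505 kept their direction with a median absolute log2 difference of 0.81 in place of 0.94. With a block for whether a name ends in T, 4 genes were called, none of them among the 505, and 500 of the 505 kept their direction at a median of 0.73. In that block the 7 metastatic samples ending in T have no non-metastatic partner, so that the difference rests on metastatic tumors 1 and 2 alone. Leaving out 1 tumor at a time gave between 221 and 879 genes, and 185 of the 505 genes passed in all 18 of these fits. The total moved by more than 1.5 times without non-metastatic tumor 2 (642 higher and 237 lower) and without non-metastatic tumors 3 (224 and 100), 4 (180 and 84), 5 (152 and 69), 7 (153 and 72), 8 (158 and 86) and 9 (192 and 119). It did so too without metastatic tumors 3 (171 and 74), 4 (182 and 78), 5 (202 and 86) and 9 (193 and 89), and the number of higher genes also without non-metastatic tumor 1 (228). For called genes given with an adjusted p in the following, the number of these 18 fits that lost the call is given where it is above 0. Where 3.34% of all genes are called, short gene lists are expected to hold few called genes, and low counts are no result about a list.

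Mitosis and spindle genes had the largest median difference of the 33 lists. Of the 30 mitosis and spindle genes measured 6 rose, none fell, and 28 had a positive difference, with a median of 1.92 against 0.01 for all genes. PRC1, which bundles microtubules of the central spindle, rose 9.70-fold. Its log2 signal ranged from 5.17 to 9.08 (median 7.26) in metastatic and from 2.27 to 7.83 (median 3.29) in non-metastatic carcinomas, a log2 difference of 3.28 ± 0.70 (SE, adjusted p = 0.0224). Non-metastatic tumor 2 had the 7.83, and all other non-metastatic tumors lay below every metastatic tumor. Only PRC1 among the 6 kept its call in all 18 omissions of a tumor. The mitotic kinesin KIF15 (2.57 ± 0.57, adjusted p = 0.025) lost it without non-metastatic tumor 5, and the spindle checkpoint kinase TTK (2.81 ± 0.73, adjusted p = 0.0445) in 13 of 18. TPX2, which targets Aurora A to the spindle, CDK1, the kinase that starts mitosis, and CEP55, which acts in abscission, were the others, with differences of 2.17 to 2.26. The other probe sets of PRC1 gave 0.42 to 1.63 and those of KIF15 -0.16 to 1.78.

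DNA replication showed the same direction, with 6 of 43 genes higher, none lower and 42 positive (median 0.87). RRM1, the large subunit of ribonucleotide reductase, ranged from 10.82 to 12.38 (median 11.27) in metastatic and from 9.73 to 10.91 (median 10.20) in non-metastatic carcinomas, with a difference of 1.20 ± 0.19 (adjusted p = 0.00959). RPA2, which coats single-stranded DNA, differed by 1.23 ± 0.25 (adjusted p = 0.0195). The groups of RRM1 overlapped only between 10.82 and 10.91, those of RPA2 between 7.82 and 8.46. Both calls held in all 18 omissions, as did that of GINS1 of the replicative helicase (1.38). ORC6 of the origin recognition complex (2.76 ± 0.66, adjusted p = 0.0336, lost in 11 of 18), the licensing factor CDC6 (1.61) and MCM10 (2.02) completed the 6. GINS4, outside the list, differed by 2.59 ± 0.68 (adjusted p = 0.0456, lost in 15 of 18). Without non-metastatic tumor 2, 18 of the 30 mitosis genes and 18 of the 43 replication genes passed, with medians of 2.20 and 0.97. Without metastatic tumor 7, the tumor with the lowest mitosis mean of its group, 12 and 8 passed. Over all 18 omissions the number that rose ranged from 1 to 18 for mitosis and from 3 to 18 for replication. Of all 15115 genes, 879 passed without non-metastatic tumor 2 and 426 without metastatic tumor 7, against 505 with all 18 tumors.

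Of 24 cyclins, cyclin-dependent kinases and inhibitors 1 rose and 1 fell (median 0.28). CCNE1, the cyclin of S phase entry, differed by 1.88 ± 0.43 (adjusted p = 0.0297, lost in 6 of 18), and CCNL2, a cyclin bound to splicing factors, by -0.80 ± 0.19 (adjusted p = 0.0307, lost in 8 of 18). The other probe sets of CCNL2 gave -0.85 to 0.71. CCNA2 of S and G2 phase had a difference of 2.52 ± 0.68 that did not pass (adjusted p = 0.0518). None of 32 DNA repair genes passed (median 0.43), the smallest p being those of BARD1, the partner of BRCA1 (0.90 ± 0.27, adjusted p = 0.0706), and of the glycosylase OGG1 (0.65 ± 0.19, adjusted p = 0.0718). The omission of non-metastatic tumor 2 gave 3 repair genes that passed.

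**Figure D2:**
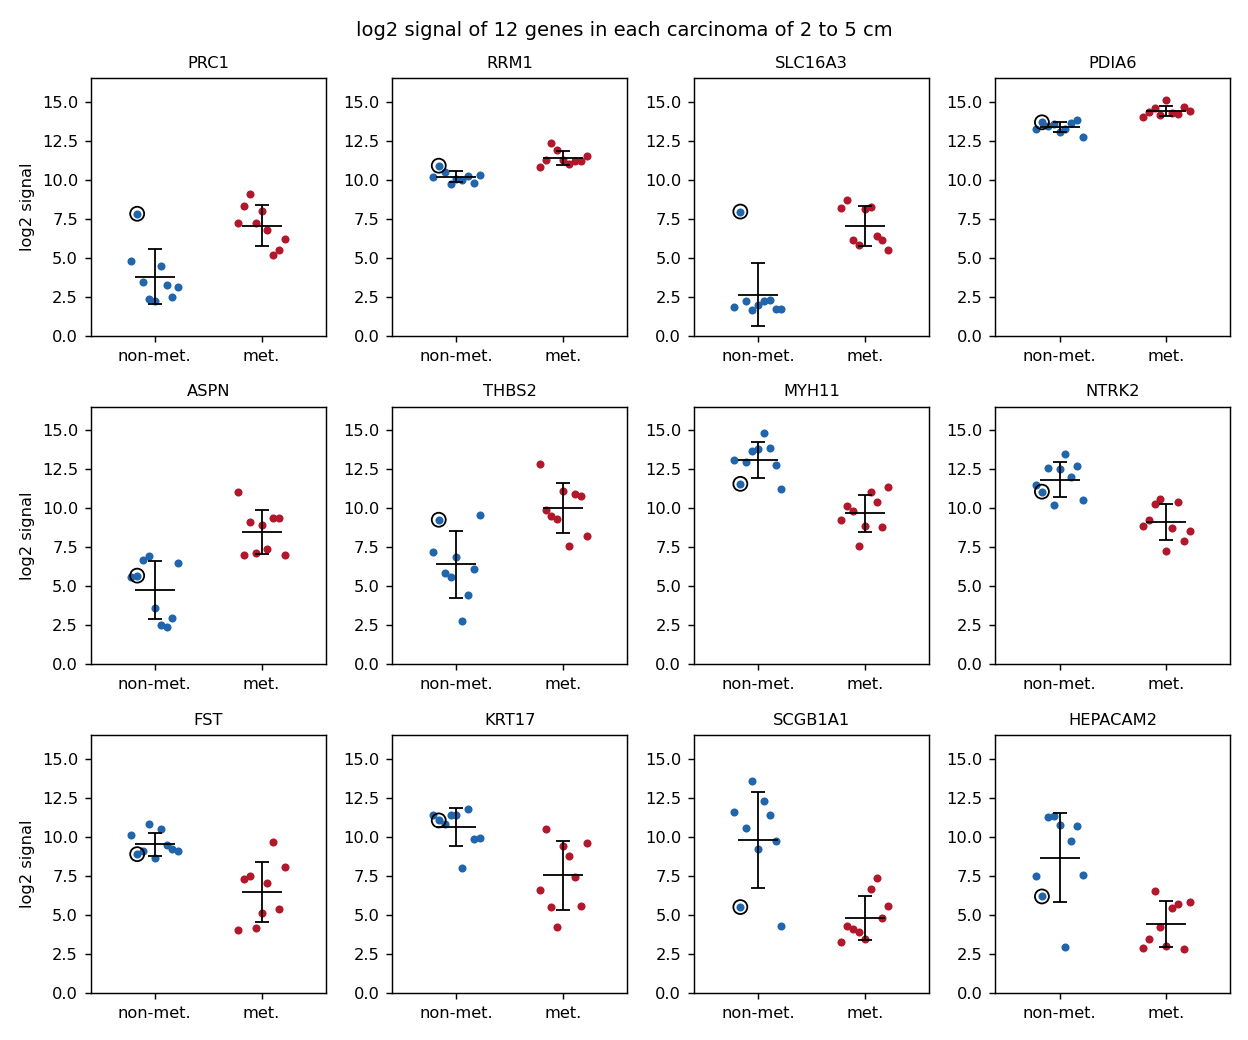
Log2 signal (y axis) of 12 genes in the 9 non-metastatic (blue) and 9 metastatic (red) carcinomas, each point a tumor in the order 1 to 9, with the mean and SD in black and non-metastatic tumor 2 circled. The groups of PDIA6 and ASPN do not overlap, and for PRC1 and SLC16A3 the circled tumor, at 7.83 and 7.97, is the non-metastatic tumor that lies among the metastatic ones.

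Of 32 measured folding genes 5 rose and none fell, and 29 were positive (median 0.30). PDIA6, a disulfide isomerase of the endoplasmic reticulum, ranged from 14.01 to 15.09 (median 14.35) in metastatic and from 12.77 to 13.81 (median 13.45) in non-metastatic carcinomas. The groups did not overlap, and the difference was 1.03 ± 0.15 (adjusted p = 0.00849). HSPD1, the mitochondrial chaperonin, differed by 0.60 ± 0.08 (adjusted p = 0.00754), and HSPA8, the constitutive cytosolic HSP70, by 0.51 ± 0.09 (adjusted p = 0.0131). These 3 calls held in all 18 omissions. CCT8 of the cytosolic chaperonin (0.81) and the isomerase FKBP3 (1.63) also passed. The mean signal over the 32 genes lay between 11.91 and 12.11 in the metastatic and between 11.48 and 11.88 in the non-metastatic carcinomas, without overlap. None of the other lists was without overlap. Group means were 12.01 and 11.67 for folding genes, and 11.09 and 10.83 for the genes often used as references. The upper quartile of the arrays was also higher in metastatic carcinomas, and its share in the shift was not tested.

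Of 24 proteasome genes 2 rose, the core subunits PSMA1 (0.65 ± 0.12, adjusted p = 0.0151) and PSMB3 (0.65 ± 0.14, adjusted p = 0.0253, lost without non-metastatic tumor 5), and 23 were positive (median 0.32). Of 35 genes of the mitochondrial ribosome 1 rose, a share of 2.86% that lies below the 3.34% of all genes. This was MRPL3 (0.69 ± 0.16, adjusted p = 0.0305, lost in 8 of 18), and 32 of the 35 differences were positive (median 0.47). None of 31 genes of the respiratory chain and ATP synthase passed (median 0.23), where UQCRC2 of complex III had 0.56 ± 0.15 (adjusted p = 0.0502) and NDUFS1 of complex I 0.52 ± 0.15 (adjusted p = 0.0685). These counts moved with single tumors. Without non-metastatic tumor 2, 7 proteasome genes rose and 1 fell, 9 mitochondrial ribosome genes rose and 2 respiratory genes rose. Over all 18 omissions the numbers that rose ranged from 1 to 7, from 0 to 9 and from 0 to 2.

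Genes of glycolysis and hypoxia rose in 4 of 30 cases, with none lower and 25 positive (median 0.58). The share called was 13.3%, against 3.34% of all genes and 13.3% of the genes often used as references. SLC16A3, the transporter that exports lactate from glycolytic cells, had the largest increase of all called genes, 21.3-fold. It ranged from 5.53 to 8.71 (median 6.39) in metastatic and from 1.68 to 7.97 (median 1.96) in non-metastatic carcinomas, a difference of 4.41 ± 0.77 (adjusted p = 0.0128). The 7.97 belonged to non-metastatic tumor 2, and the other 8 non-metastatic tumors lay at the lower end of the scale. P4HA1 and P4HA2, hypoxia-induced catalytic subunits of collagen prolyl hydroxylase, rose 3.26-fold (SE of the log2 difference 0.33, adjusted p = 0.0153) and by 1.10 ± 0.27 (adjusted p = 0.0363, lost in 10 of 18), and the glycolytic kinase PGK1 by 1.00 ± 0.25 (adjusted p = 0.0363, lost in 12 of 18). P4HA3, another prolyl hydroxylase gene outside the list, ranged from 3.37 to 8.21 against 2.99 to 4.30 and differed by 2.64 ± 0.45 (adjusted p = 0.0115). Other probe sets gave -0.08 to 2.46 for P4HA1, -0.22 to 1.27 for P4HA2, -0.04 to 0.56 for PGK1 and 2.07 for P4HA3. Without non-metastatic tumor 2, 11 of the 30 genes rose, and over all 18 omissions the number ranged from 2 to 11.

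Of 16 genes of cholesterol synthesis and uptake 2 rose and 15 were positive (median 0.52), and both calls held in all 18 omissions. SQLE, the squalene epoxidase, ranged from 9.56 to 12.51 (median 11.22) against 7.57 to 10.57 (median 8.41), a difference of 2.27 ± 0.47 (adjusted p = 0.0197). STARD4, a cholesterol carrier, differed by 1.32 ± 0.27 (adjusted p = 0.0197).

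Genes of fibroblasts and collagen matrix had the second largest list median. Of 21 genes 2 rose, 19 were positive, and the median difference was 1.14. COL1A1, a chain of type I collagen, ranged from 13.76 to 15.81 (median 14.97) in metastatic and from 9.96 to 14.15 (median 13.60) in non-metastatic carcinomas, a difference of 1.80 ± 0.48 (adjusted p = 0.0496, lost in 15 of 18). The 9.96 was that of non-metastatic tumor 6. THBS2, a matricellular thrombospondin, differed by 3.58 ± 0.87 (adjusted p = 0.0354, lost in 10 of 18). ASPN, a small leucine-rich proteoglycan outside the list, ranged from 6.99 to 11.06 in metastatic and from 2.40 to 6.94 in non-metastatic carcinomas, without overlap, with a difference of 3.71 ± 0.76 (adjusted p = 0.0197) that held in all 18 omissions. Of the other genes with large increases, the matrix protein COCH differed by 3.04 ± 0.79 (adjusted p = 0.0447, lost in 15 of 18), the protease inhibitor TFPI2 by 2.80 ± 0.72 (adjusted p = 0.0434, lost in 14 of 18) and the secreted retinol carrier RBP4 by 3.95 ± 0.94 (adjusted p = 0.0321, lost in 6 of 18). Without non-metastatic tumor 6 the list median was 0.65, and without metastatic tumor 7 none of its genes passed.

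None of 21 matrix proteases and inhibitors passed, with 17 positive and a median of 0.68. The stromal metalloproteinase MMP11 had a difference of 3.66 ± 0.99 (adjusted p = 0.0518) and the collagenase MMP13 of 3.84 ± 1.15 (adjusted p = 0.0728), while their ranges overlapped widely, from 7.31 to 13.26 against 3.64 to 12.31 for MMP13. With non-metastatic tumor 2 omitted, 4 of the 21 passed. None of 19 endothelial genes passed (median 0.80), with the vessel tip marker ESM1 at 2.93 ± 0.93 (adjusted p = 0.0866) and the VEGF receptor FLT1 at 1.51 ± 0.48 (adjusted p = 0.0911).

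Contractile genes of smooth muscle and myoepithelium went the other way. Of 21 measured genes 3 fell, none rose, and all 21 differences were negative (median -0.36). MYH11, the smooth muscle myosin heavy chain, was 10.6-fold lower. It ranged from 7.56 to 11.35 (median 9.81) in metastatic and from 11.22 to 14.85 (median 13.10) in non-metastatic carcinomas, a difference of -3.41 ± 0.54 (adjusted p = 0.00959) that held in all 18 omissions, and the groups overlapped only between 11.22 and 11.35. CNN1, or calponin, differed by -2.59 ± 0.68 (adjusted p = 0.0463, lost in 13 of 18) and the enteric actin ACTG2 by -2.26 ± 0.54 (adjusted p = 0.0324, lost in 9 of 18). The other 3 probe sets of MYH11 gave -4.53 to -3.87. Of 11 genes of the basal epithelium 1 fell and 8 were negative (median -0.26). KRT17, a keratin of basal and myoepithelial cells, ranged from 4.21 to 10.52 (median 7.44) against 7.98 to 11.81 (median 11.05), a difference of -3.11 ± 0.81 (adjusted p = 0.0445, lost in 12 of 18), and EGFR had -0.80 ± 0.29 (adjusted p = 0.134). The mean signal of the 21 contractile genes was 7.30 to 8.85 in metastatic and 8.56 to 9.47 in non-metastatic carcinomas.

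Receptor tyrosine kinases fell in 4 of 38 cases, with none higher, a share of 10.5% against 3.34% of all genes called. Negative differences were found in 24 of the 38, against 7275 of all 15115 genes. The list median was -0.20, and it was -0.02 within grade II, -0.28 within grade III and -0.09 with the upper quartile as a covariate. NTRK2, the receptor of brain-derived neurotrophic factor, ranged from 7.27 to 10.61 (median 8.87) in metastatic and from 10.19 to 13.50 (median 12.01) in non-metastatic carcinomas, a difference of -2.74 ± 0.51 (adjusted p = 0.0151) that held in all 18 omissions. FGFR1, a receptor of fibroblast growth factors, differed by -2.51 ± 0.58 (adjusted p = 0.0303, lost in 6 of 18), the ephrin receptor EPHB1 by -1.69 ± 0.38 (adjusted p = 0.0259, lost without non-metastatic tumor 5) and ERBB4, the neuregulin receptor of the lactating gland, by -1.17 ± 0.26 (adjusted p = 0.028, lost in 3 of 18). For NTRK2 the other 4 probe sets gave -2.62 to 0.02, for EPHB1 the others gave -0.66 to -0.03, and for ERBB4 -0.08 to 0.01. ERBB2, which encodes HER-2, did not pass (-0.38 ± 0.53, adjusted p = 0.721), with ranges of 4.51 to 8.01 against 5.28 to 8.04.

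Of 30 genes of the TGF-beta and BMP pathways 1 rose and 1 fell (median 0.10). FST, the follistatin that binds activins, ranged from 4.03 to 9.66 (median 7.02) against 8.62 to 10.79 (median 9.20) and differed by -3.05 ± 0.66 (adjusted p = 0.0231) in all 18 omissions. SMAD4, the common mediator of these pathways, differed by 0.45 ± 0.10 (adjusted p = 0.0272, lost in 4 of 18). The ligand BMP6 had 2.09 ± 0.59 (adjusted p = 0.0604) and the co-receptor TGFBR3 -2.03 ± 0.62 (adjusted p = 0.0803).

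None of 22 genes of luminal differentiation and hormone receptors passed. Their median was -0.14, and it ranged from -0.31 to -0.02 over the 18 omissions and was -0.65 with the upper quartile as a covariate. The luminal transcription factors GATA3 and FOXA1 had differences of -3.42 ± 0.97 (adjusted p = 0.0602) and -2.91 ± 0.98 (adjusted p = 0.106). GATA3 ranged from 3.33 to 10.18 in metastatic and from 8.30 to 13.28 in non-metastatic carcinomas. ESR1 lay at the lower end of the scale on both sides (2.17 to 3.40 against 2.24 to 4.48, difference -0.66 ± 0.30, adjusted p = 0.227), in tumors labelled estrogen receptor negative. PGR, the progesterone receptor, differed by -1.77 ± 1.02 (adjusted p = 0.349). All 13 milk protein and secretory genes were negative with a median of -0.96, and none passed. LALBA, the lactalbumin, ranged from 2.45 to 12.69 (median 2.64) in metastatic and from 5.89 to 14.51 (median 10.68) in non-metastatic carcinomas (-4.73 ± 1.67, adjusted p = 0.12), and beta-casein CSN2 from 2.86 to 13.25 against 2.77 to 15.45 (log2 difference -3.88, adjusted p = 0.211). SCGB1A1, outside the list, was the gene of largest decrease, 31.3-fold. It ranged from 3.26 to 7.33 (median 4.27) against 4.27 to 13.57 (median 10.56), with a difference of -4.97 ± 1.10 (adjusted p = 0.0249) that held in all 18 omissions. Of its other probe sets 1 gave -4.97 and 1 gave 0.01.

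Further genes of large decrease were KLHL13, a ubiquitin ligase adaptor (-3.25 ± 0.67, adjusted p = 0.0197), RIMS1, a scaffold of vesicle release (-3.72 ± 0.88, adjusted p = 0.0321, lost in 9 of 18), UNC93A (-2.96 ± 0.78, adjusted p = 0.0455, lost in 14 of 18) and the methyltransferase BHMT2 (-2.60 ± 0.69, adjusted p = 0.0493, lost in 15 of 18). All 9 metastatic carcinomas lay between 2.22 and 2.44 for BHMT2, at the lower end of the scale, and the non-metastatic ones between 2.36 and 7.77.

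Genes of the study's quantitative PCR came from the signature of these 27 tumors, from members known from earlier work on canine mammary tumors, and are no independent evidence of a direction. They were measured in 7 of 8 cases, and 2 of the 7 passed. These were ERBB4, described above, and HEPACAM2, an immunoglobulin-type adhesion protein. HEPACAM2 ranged from 2.79 to 6.55 (median 4.24) in metastatic and from 2.92 to 11.36 (median 9.73) in non-metastatic carcinomas, 18.8-fold lower (-4.23 ± 1.04, adjusted p = 0.0363, lost in 12 of 18). Non-metastatic tumor 6 had the 2.92 and tumor 2 the next lowest value. AURKA, the mitotic kinase Aurora A, had 1.57 ± 0.52 (adjusted p = 0.101), ALOX12, a lipoxygenase, -0.94 ± 0.29 (adjusted p = 0.0761) and IGF2R -0.54 ± 0.30 (adjusted p = 0.331). Without non-metastatic tumor 2, 2 of the 7 were higher and 4 lower.

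**Figure D3:**
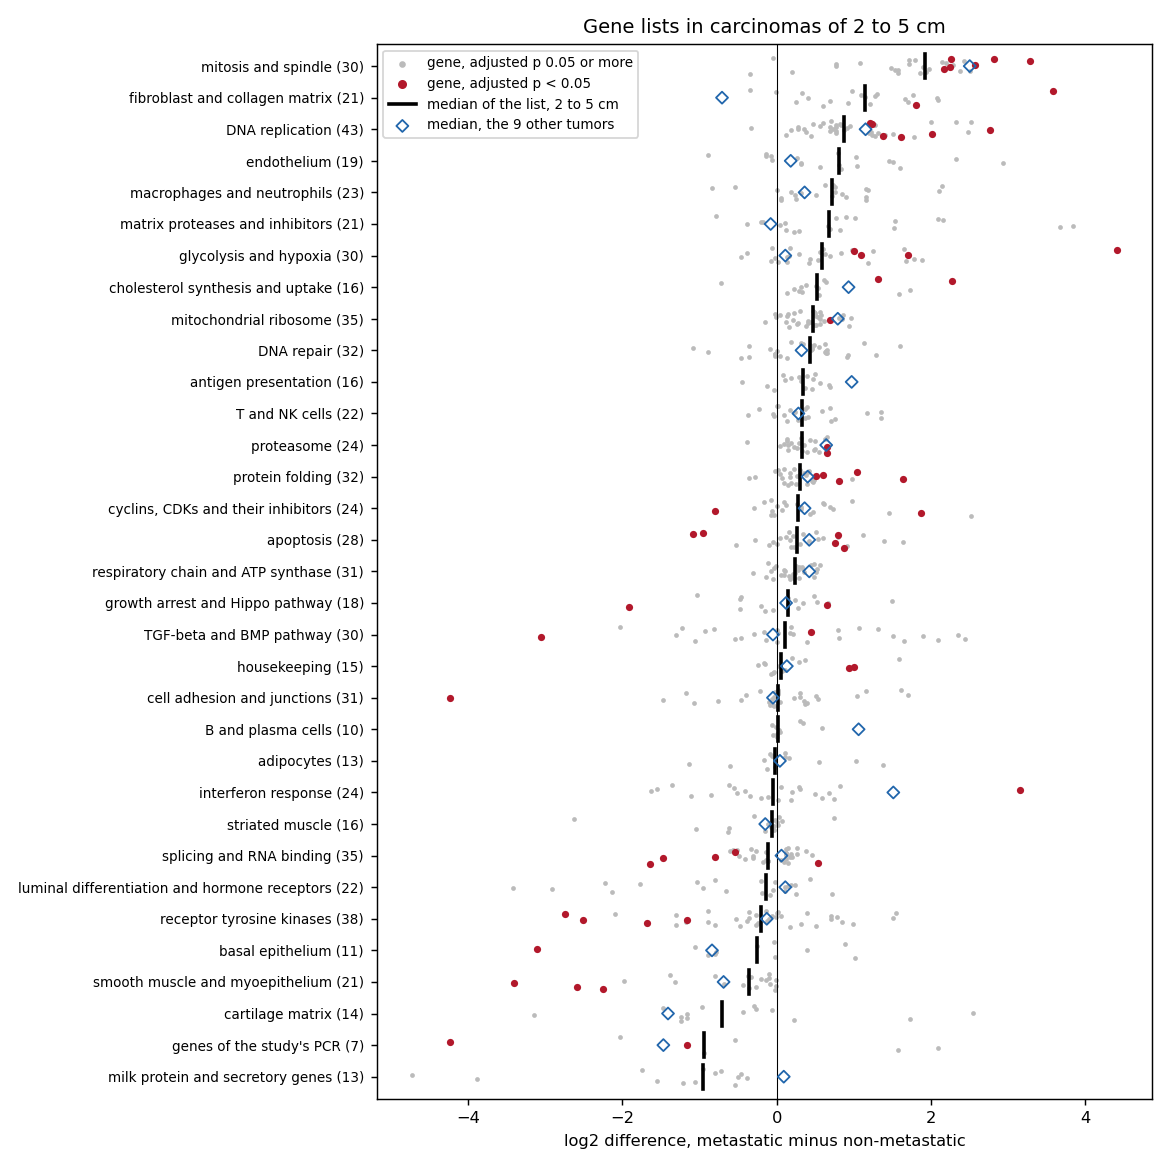
Log2 difference, metastatic minus non-metastatic (x axis), of each measured gene of 33 lists (rows, with the number of genes) in carcinomas of 2 to 5 cm. Red points passed an adjusted p of 0.05, black bars are list medians, which run from -0.96 (milk protein genes) to 1.92 (mitosis), and blue diamonds are the medians in the 9 carcinomas of other sizes.

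Immune lists held few or no called genes. With 3.34% of all genes called, lists this short are expected to hold few or none. None of 22 T and NK cell genes (median 0.32), 10 B and plasma cell genes (median 0.01), 23 macrophage and neutrophil genes (median 0.72) and 16 antigen presentation genes (median 0.34) passed. AIF1 of macrophages had 1.16 ± 0.34 (adjusted p = 0.0677), TREM1, a receptor of neutrophils and monocytes, 2.14 ± 0.63 (adjusted p = 0.0709), the cytotoxic protease GZMB 1.35 ± 0.47 (adjusted p = 0.116) and the T cell receptor chain CD3G 1.35 ± 0.70 (adjusted p = 0.297). In antigen presentation CTSS had 0.69 ± 0.31 (adjusted p = 0.221) and DLA-DRA 0.56 ± 0.27 (adjusted p = 0.249). B cell genes were near the lower end of the scale, with POU2AF1 at medians of 2.87 and 2.94. The T and NK list was highest in metastatic tumor 4, at a mean of 6.92 against a group median of 4.29, and without that tumor its median difference was 0.01. The antigen presentation median was 0.19 without metastatic tumor 4, 0.22 without non-metastatic tumor 1 and 0.13 without non-metastatic tumor 6. With non-metastatic tumor 2 omitted, 2 macrophage and neutrophil genes passed.

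Of 24 interferon-induced genes 1 rose (4.17%, against 3.34% of all genes), 12 were positive and 12 negative (median -0.05). ISG20, an exonuclease, ranged from 6.04 to 9.69 against 2.24 to 8.96 and differed by 3.15 ± 0.80 (adjusted p = 0.0419, lost in 14 of 18), while RSAD2 had 0.82 ± 0.58 (adjusted p = 0.453). The list mean spanned 6.44 to 9.06 within the metastatic carcinomas, with a median of 8.04, and the non-metastatic carcinomas reached from slightly lower to 8.98, with a median of 7.71.

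Of 31 genes of adhesion and junctions HEPACAM2 was the only one that passed, a share of 3.23% against 3.34% of all genes (list median 0.01). The leukocyte integrin ITGA4 and its ligand VCAM1 had 1.04 ± 0.37 (adjusted p = 0.12) and 1.61 ± 0.70 (adjusted p = 0.213). Among 18 genes of growth arrest and the Hippo pathway, which restrains growth, 1 rose and 1 fell (median 0.14). The kinase LATS1 ranged from 4.02 to 6.38 (median 4.53) against 5.24 to 7.68 (median 7.09), a difference of -1.92 ± 0.39 (adjusted p = 0.0196) that held in all 18 omissions, while its other probe set gave 0.54. Its cofactor MOB1A differed by 0.65 ± 0.15 (adjusted p = 0.032, lost in 8 of 18), and the kinase STK3 had 0.52 ± 0.15 (adjusted p = 0.0722).

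Of 28 apoptosis genes 3 rose and 2 fell (median 0.26), against 6 and 2 without non-metastatic tumor 2 and 5 and 1 without metastatic tumor 7. AATF, an antagonist of apoptosis, differed by 0.87 ± 0.14 (adjusted p = 0.00959) and PDCD10 by 0.79 ± 0.15 (adjusted p = 0.0151), both in all 18 omissions, and the BH3 protein BID was the third (0.76). The TNF receptors TNFRSF1B (-1.09 ± 0.26, adjusted p = 0.0336, lost in 7 of 18) and TNFRSF21 (-0.96) fell. Of 35 splicing and RNA-binding genes 4 fell and 1 rose (median -0.11). EWSR1 ranged from 8.96 to 11.06 (median 9.50) against 10.27 to 12.08 (median 11.34), a difference of -1.65 ± 0.28 (adjusted p = 0.0126) that held in all 18 omissions, with -0.42 for its other probe set. SRSF11 (-0.54 ± 0.12, adjusted p = 0.0282, lost in 4 of 18), RBM5 (-0.80) and LARP4 (-1.47) were the other genes that fell. HNRNPC, which binds nascent transcripts, rose by 0.53 ± 0.09 (adjusted p = 0.0128) without overlap of the groups.

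Among the remaining lists, none of 14 cartilage matrix genes (median -0.71), 16 striated muscle genes (median -0.06) and 13 adipocyte genes (median -0.02) passed. The collagens COL2A1 and COL10A1 of cartilage had -3.15 ± 0.99 (adjusted p = 0.0846) and -1.16 ± 0.33 (adjusted p = 0.0595), TNNI2 of fast muscle -2.63 ± 0.95 (adjusted p = 0.132) and NEB -0.11 ± 0.05 (adjusted p = 0.221). The other probe sets of COL2A1 and COL10A1 gave -0.07 and -0.13, and differences in the cartilage list ran from -3.15 to 2.54. CIDEA and CD36 of adipocytes had -1.13 ± 0.82 (adjusted p = 0.464) and -0.61 ± 0.61 (adjusted p = 0.61). Of 15 genes often used as references 2 rose, HPRT1 (0.94 ± 0.19, adjusted p = 0.0197) and PGK1, and the list median was 0.06. Their share of 13.3% was near those of glycolysis and hypoxia (13.3%), replication (14%), contractile (14.3%) and cholesterol genes (12.5%). All genes had 3.34%.

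Over the 18 omissions of a tumor, the number of genes that rose ranged from 1 to 18 for mitosis, from 3 to 18 for replication, from 3 to 7 for folding, from 2 to 11 for glycolysis and hypoxia, from 2 to 6 for apoptosis and from 0 to 9 for the mitochondrial ribosome. The number that fell ranged from 1 to 5 for receptor tyrosine kinases, from 1 to 4 for contractile genes, from 1 to 6 for splicing and from 0 to 2 for apoptosis. The 2 cholesterol genes were called in every omission.

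**Figure D4:**
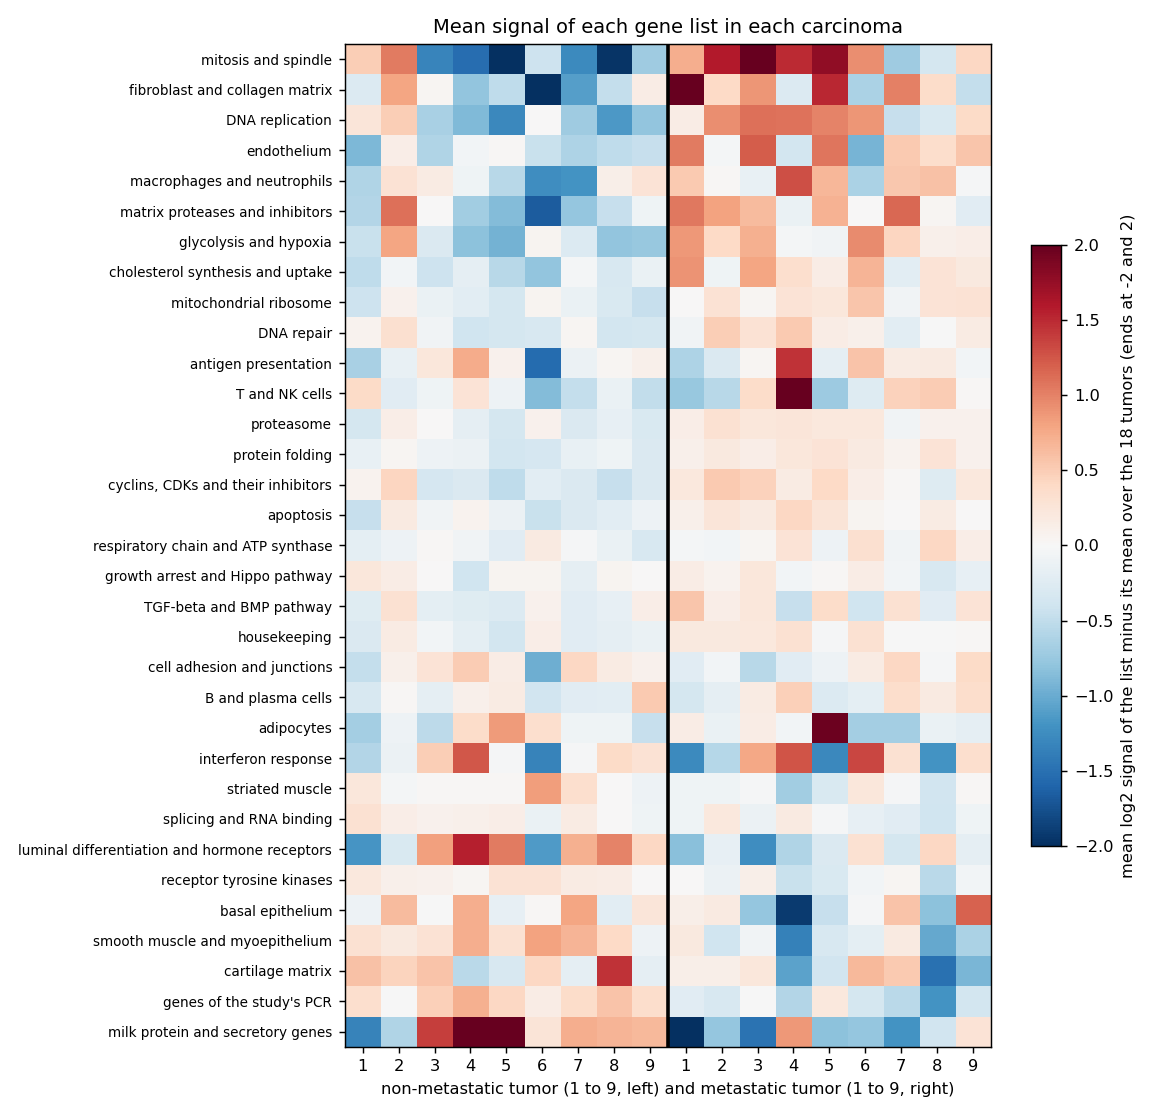
Mean log2 signal of each gene list minus its mean over the 18 carcinomas (colour, with values beyond -2 and 2 at the end colours) for the 9 non-metastatic (left) and 9 metastatic tumors (right). Non-metastatic tumor 2 has the highest mean of its group in 15 of the 33 lists and non-metastatic tumor 6 the lowest in 10, and metastatic tumor 7 has the lowest mean of its group in 8.

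The carcinomas of a group were not alike. Non-metastatic tumor 2 had the highest mean of its group in 15 of 33 lists, among them mitosis (7.16, against a median of 4.86 in non-metastatic and 7.05 in metastatic carcinomas), replication, folding, glycolysis, collagen matrix and matrix proteases. Non-metastatic tumor 6 had the lowest mean in 10 lists, with collagen matrix genes at 7.99 against a median of 10.60, and the highest in contractile (9.47) and striated muscle genes (4.88). In the metastatic group, tumors 7, 8 and 9 had mitosis means of 5.42, 5.78 and 6.54, below the 6.62 of non-metastatic tumor 1, and tumor 1 had the highest collagen matrix mean (13.55).

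Complete separation of the groups was rare. In 32 genes (0.212%) all 9 metastatic values lay above (20 genes) or below (12 genes) all 9 non-metastatic values, and 26 of the 32 passed the test. GPN2, a GTPase of RNA polymerase assembly, had the smallest p of all genes and ranged from 5.76 to 7.41 against 4.60 to 5.76, where both inner values round to 5.76 (1.50 ± 0.19, adjusted p = 0.00658). RAC1, a GTPase of cell motility, ranged from 13.41 to 13.74 against 13.05 to 13.34 (0.34 ± 0.05, adjusted p = 0.00754), a difference of 0.05 in the carcinomas of other sizes. The translation factor EIF1AX (0.91 ± 0.15), the kinase IRAK4 of innate immune signalling (1.39 ± 0.23), the folate carrier SLC19A1 (1.72 ± 0.32) and the SMAD corepressor SKIL (1.61 ± 0.32) were among the genes above. The Wnt effector TCF7L2 (-1.61 ± 0.37), the water channel AQP8 (-1.39 ± 0.29) and the ribosomal proteins RPS27 (-0.68 ± 0.12) and RPS13 (-0.30 ± 0.06) were among the genes below. Other probe sets of TCF7L2 (-0.14 and -0.10), AQP8 (0.03 and 0.04), RPS27 (-0.15) and EIF1AX (-0.06 to 0.59) gave values closer to 0. GPN2, RAC1, EIF1AX, IRAK4, SLC19A1, SKIL, TCF7L2, AQP8, RPS27 and RPS13 were chosen after their values were seen.

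The 4 small metastatic and 5 large non-metastatic carcinomas share no array with the 18 tumors, and node status and size cannot be told apart in them. The names of all 4 small metastatic samples end in T and those of 0 of the 5 large non-metastatic ones do. Node status and name ending therefore cannot be told apart in them either, and a shared sign with the 18 tumors can come from both. In these 9 carcinomas 181 genes passed (1.20%), 119 higher and 62 lower in the metastatic tumors. Of the 505 genes, 494 (97.8%) had the same sign in the 9 carcinomas, against 73.0% of all genes, and the Pearson correlation of both log2 differences over all 15115 genes was 0.60. Genes are not independent replicates, and this is a description. The genes that passed in both numbered 39, all of the same sign, which is 7.72% of the 505 and 21.5% of the 181. The median absolute difference of the 505 genes was 0.94 in both sets. With all 27 carcinomas and no regard to size 2611 genes passed, of which 18.6% also passed in the matched tumors, and the median SE of those genes was 0.19 with 27 tumors against 0.22 with 18.

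Among the lists, mitosis (median 2.50 in the 9 carcinomas), replication (1.15) and contractile genes (-0.69) kept their sign. The collagen matrix list had a median of -0.71 in the 9 carcinomas against 1.14 in the matched tumors, and only 5 of its 21 genes were positive there. The interferon list had 1.51 against -0.05, with all 24 genes positive. Milk protein genes had 0.09 against -0.96, matrix proteases -0.08 against 0.68, and glycolysis and hypoxia 0.11 against 0.58. COL1A1 differed by -0.17 ± 0.70 in the 9 carcinomas and by 1.80 ± 0.48 in the matched ones, and the test of the difference between them did not pass (adjusted p = 0.791). For P4HA1, at 0.08 in the 9 carcinomas, it did not pass either (adjusted p = 0.774). The 11 of the 505 genes with the opposite sign included P4HA2, WFDC1, SEC23A of secretory vesicles and TNFSF11, the RANK ligand (2.53 ± 0.62 against -0.95 ± 1.30). These were named after their values were seen, and none of the 11 passed the test of the difference.

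**Figure D5:**
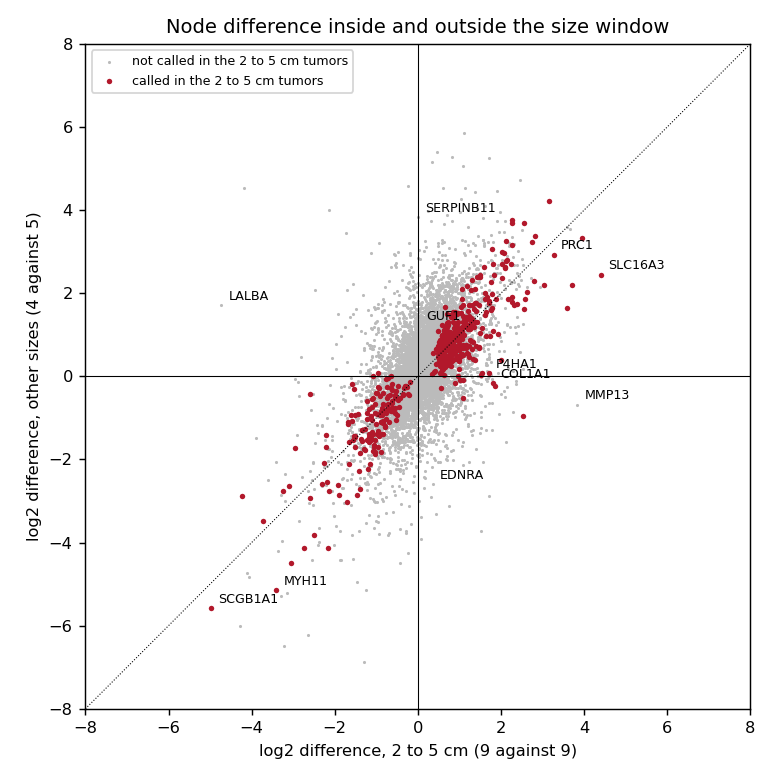
Log2 difference, metastatic minus non-metastatic, in the 18 carcinomas of 2 to 5 cm (x axis) and in the 4 small metastatic against 5 large non-metastatic carcinomas (y axis) for 15115 genes, with the 505 called genes in red and the line of equality dotted. Of the red points 494 lie in the quadrants of equal sign, and SERPINB11 lies at 0.01 on the x axis and 3.83 on the y axis.

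The difference between matched and other tumors passed for 2 genes (0.0132%), against 913 with an unadjusted p under 0.05. SERPINB11, a serpin, stood between 2.31 and 2.54 in all 18 matched carcinomas, while the 4 small metastatic carcinomas had 5.25 to 8.66 and the 5 large non-metastatic ones 2.40 to 5.20 (-3.82 ± 0.58, adjusted p = 0.00632). The fit takes a common spread for all 4 groups. The SD of SERPINB11 was 0.07 in each matched group, 1.43 in the small metastatic and 1.21 in the large non-metastatic carcinomas. Between the small and large carcinomas alone SERPINB11 differed by 3.83 ± 0.82 (SE) and did not pass (limma adjusted p = 0.0735). GUF1, a mitochondrial translation factor, stood between 2.41 and 2.63 in the matched carcinomas and at 3.57 to 3.91 in the 4 small metastatic ones (-1.18 ± 0.07, adjusted p = 3.07e-10). None of the next genes of smallest p passed. EDNRA, the endothelin receptor, had 0.36 ± 0.43 in the matched and -2.60 ± 0.64 in the other tumors (adjusted p of the difference = 0.653), SULT1C4 0.49 and -2.07 (0.573), SEC31A 0.40 and -0.74 (0.647), KCTD10 0.15 and -1.46 (0.647), and the splicing regulator RBFOX2 -0.41 and -1.54 (0.653). In the other direction WDR37 had 0.35 and 1.58 (0.573), LOC607847 0.32 and 2.24 (0.647), and the B cell receptor subunit CD79B 0.04 and 2.82 (0.464).

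Node status and histologic grade were also set against each other within the 18 tumors, with 4 against 4 of grade II and 5 against 5 of grade III. The difference between grades in the effect of node status passed for 0 of 15115 genes (0%), with 446 at an unadjusted p under 0.05 and a smallest adjusted p of 0.579. All 505 genes had the same sign in both grades, which share the tumors with the comparison of all 18. The mitosis median was 2.42 within grade II and 1.55 within grade III, and that of the collagen list 1.08 and 1.16. The interferon list had -0.97 within grade II and 0.94 within grade III, the macrophage list 0.17 and 1.11, and antigen presentation -0.10 and 0.68. LALBA differed by -8.75 within grade II and by -1.51 within grade III.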

How the data were processed

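RNA of 27 canine mammary carcinomas was measured on the Affymetrix Canine Genome 2.0 array, with 1 array for each tumor. The deposited values are log2 signals that the authors made in Partek Genomic Suite with its gcRMA workflow (RMA background correction, quantile normalization, median polish). They were used as deposited, and differences of low signals are compressed by such processing. Groups, sizes, grades and ages came from the labels. Of 43035 probe sets, 175 controls were left out. Of the 42860 tested, 29254 carry 1 symbol of the platform annotation, 439 several and 13167 none. For each of 15115 genes the probe set with the highest mean in the 27 tumors was kept.

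The 9 metastatic and 9 non-metastatic carcinomas of 2 to 5 cm were compared in R 4.3.3 by limma 3.58.1 (lmFit, eBayes) and Benjamini-Hochberg adjustment over all genes, called at an adjusted p under 0.05. The ANOVA of the methods without moderation was an alternative. The difference between matched and other tumors was tested as a contrast of 4 groups, and grade as an interaction. Array measures were compared by exact permutation. The number of arrays limits the precision, and the p-values cover the spread between dogs. Tables and plots were made in Python 3.11.15 with pandas 2.3.3 and matplotlib 3.10.9.

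The tumors, the 33 gene lists (747 of 847 genes measured) and the tests were chosen with earlier results of these data known. Named genes were the 12 of largest difference in each direction among called genes, from each list up to 2 of smallest p in the list's majority direction and 1 called gene in the other, the genes of the study's PCR, ERBB2, ESR1 and PGR, and up to 5 of smallest p in each direction between matched and other tumors. Alternatives were a second quantile normalization, median centring, a filter on dim genes, the mean of a gene's probe sets, array weights, the upper quartile, grade, age or size as a covariate, a block for names that end in T, tumors of 3 to 4 cm only, 27 tumors in 4 groups, the ANOVA and the omission of each tumor. A fit of all 27 tumors without regard to size was added after seeing the data.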

Additional observations from a re-analysis of the deposited data

Results flagged for a closer look

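Within 9 carcinomas of a group, single tumors stood apart from the other 8 by the gap to the nearest of them. This was tested for 276 groups of values, most of them of named genes and gene lists, and met in 20. Chance flags about 1 in 20 groups, so that single flags cannot be told from chance.

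Non-metastatic tumor 2 was high for SLC16A3 (7.97, group median 1.96), PRC1 (7.83, median 3.29), TREM1 (5.59, median 2.78) and PDCD10 (11.45, median 10.72), and all 4 of these genes had a higher mean in metastatic carcinomas. Non-metastatic tumor 6 was low for COL1A1 (9.96, median 13.60), for the mean of the collagen matrix list (7.99, median 10.60) and for KRT17 (7.98, median 11.05), and high for IGF2R (13.86, median 12.26) and the striated muscle list (4.88, median 4.07). Non-metastatic tumor 8 was high for GZMB (4.46, median 3.25) and for SERPINB11 (2.52, median 2.35), the latter at the lower end of the scale.

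Metastatic tumor 4 was high for the T and NK cell list (6.92, median 4.29) and for CD79B (2.49, median 2.21), again at the lower end of the scale, and low for AATF (9.79, median 10.43). Metastatic tumor 5 was high for CIDEA (7.92, median 3.16) and for the adipocyte list that holds it (7.42, median 5.33). Metastatic tumor 6 was high for the cartilage collagen COL2A1 (6.83, median 2.33). Metastatic tumor 8 was high for FOXA1 (6.78, median 2.93) and ESR1 (3.40, median 2.24) and low for VCAM1 (9.47, median 11.52).

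The effect of node status differed between matched and other tumors for SERPINB11 (-3.82, matched minus other, adjusted p = 0.00632 in limma) and GUF1 (-1.18, adjusted p = 3.07e-10), both by the values of the 4 small metastatic carcinomas. The fit takes a common spread for all groups, and the matched values of both genes lie at the lower end of the scale.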

How the results depend on the processing

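The 505 genes called (355 higher, 150 lower) became 317 (134 and 183) after a second quantile normalization and 1211 (794 and 417) with array weights. The ANOVA called 324 (223 and 101), the upper quartile as a covariate 11 (2 and 9) and the name ending as a block 4 (3 and 1). In 6 against 8 tumors of 3 to 4 cm 1 gene (1 and 0) was called, and 2170 had an unadjusted limma p under 0.05. All 505 kept their direction there, but these tumors are part of the 18 in which the 505 were called, so that this is no separate evidence. With all 27 tumors, which share the 18 arrays, 2611 (1578 and 1033) were called. The 1495 probe sets called became 3028 with array weights, 183 with the upper quartile, 15 with the block, 3 in tumors of 3 to 4 cm and 9083 with 27 tumors. The 1 probe set past the study's limits became 0 after centring, with the upper quartile, grade or age as a covariate, in tumors of 3 to 4 cm and in the ANOVA, 2 among bright genes, 3 with the block, 4 with 27 tumors in 4 groups and 509 with 27 tumors. Leaving out 1 tumor gave 221 to 879 genes (152 to 642 higher, 69 to 237 lower), 772 to 2239 probe sets and 0 to 5 probe sets past the study's limits. The counts for centring, bright genes, the mean of probe sets, grade, age, size and 4 groups lay within 1.5 times of 505, and the causes were not tested. Of the 52 named genes called, 52 lost the call with the block and in tumors of 3 to 4 cm, 48 with the upper quartile, 16 after the second quantile normalization and 0 to 12 under the other settings with all 18 tumors, and none was called in the opposite direction. Of the list medians, 12 moved by more than the spread between tumors: the respiratory chain to 0.03, milk protein genes to -2.04, the interferon response to -1.17 and PCR genes to -0.61 with the block, PCR genes also to -0.60 with the upper quartile and to -0.29 with the mean of probe sets, receptor tyrosine kinases to -0.48, striated muscle to -0.63, B cells to 0.44, growth arrest and Hippo genes to -0.16 and apoptosis to 0.46 among bright genes, and B cells to 0.32 with 27 tumors. No paired analysis was possible because the labels give no replicate numbers that the groups share. The number of arrays limits precision, and signals near the lower end of the scale bound how far a fold change can be read.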
